A study of Mus musculus with 6 samples.

Results

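The chemokine receptors Cxcr4, Cxcr2, Ccr1, Ccr2, Cx3cr1 and Ccrl2 were followed across leukaemic myeloid blasts. They were selected by name, as 6 of the 24454 genes in the table, and all 6 had values high enough to be tested. The samples are sorted blasts from mouse bone marrow in 2 groups of 3 libraries. Stat3β TG blasts came from fetal liver cells of C57BL/6 mice carrying Mx1-Cre recombinase and a Stat3β transgene, and WT blasts from fetal liver cells of their wild-type littermates. Both were transformed with a retrovirus for the fusion oncogene MLL-AF9 and grown in NSG recipients (NOD.Cg-PrkdcscidIl2rgtm1Wjl/SzJ), a strain that lacks mature T, B and NK cells but keeps myeloid cells of its own. Polyinosine-polycytidine, which switches on Mx1-Cre in many cell types, was given to the transplanted mice at 4 weeks, and the labels except no group. Blasts were sorted from recipients ill with acute myeloid leukaemia at 6 weeks. The labels do not say how many donors or recipients lie behind a group, so the p-values cover the spread among these libraries. How far that spread is technical is not known. WT 2 held Y-linked reads that WT 1 and WT 3 nearly lacked, so the 3 WT libraries were not repeats of 1 sample. They also do not say whether the wild-type littermates carried Mx1-Cre.

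Chemokine receptors are G protein-coupled receptors that steer leukocytes along gradients of small secreted proteins. CXCR4 binds CXCL12 made by marrow stroma and holds stem cells, progenitors and immature myeloid cells in the marrow, while CXCR2, the neutrophil receptor for CXCL1, CXCL2 and related chemokines, draws mature neutrophils out of it. CCR2 takes monocytes from marrow into blood in response to CCL2, CX3CR1 binds fractalkine and marks monocytes and macrophages, and CCR1 answers to CCL3, CCL5 and other inflammatory chemokines. CCRL2 is an atypical receptor that binds the chemoattractant chemerin without signalling like the others.

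The libraries held between 21809788 and 51934498 recovered reads, and a gene listed at 0 could, by counting error alone, hold up to 3 reads, or 1.69 to 4.22 normalized counts. Stat3, whose gene-level value sums both splice forms, averaged 9670 ± 1555 normalized counts in Stat3β TG and 11683 ± 4086 in WT (SD, n = 3 each; limma adjusted p = 0.771), so it does not check the transgene. All 14 blast markers had a mean of at least 10 normalized counts. Lists of markers of other cells were not all low. The eosinophil and basophil list summed to 8049 to 14150 normalized counts in Stat3β TG and 11621 to 52826 in WT, with overlap. Of its 13 genes, 6 had a higher mean in Stat3β TG. Prg2 had 7055, 4094 and 4024 in Stat3β TG 1 to 3 and 36893, 8375 and 28343 in WT 1 to 3. Its groups did not overlap with Stat3β TG lower, as in 4.92% of all tested genes. DESeq2 called Prg2 (adjusted p = 0.0018), as it did 0.134% of all tested genes, and limma did not (adjusted p = 0.668). The T cell list summed to at most 201 normalized counts in any library, with Cd3e listed at 0 throughout, and the erythroid list to at most 161. The B cell list summed to 1217 to 2097 in Stat3β TG and 1243 to 1808 in WT, nearly all of it Cd79b. The marrow stroma list summed to 2573 to 6546 in Stat3β TG and 4595 to 7628 in WT, mostly Pdgfrb and Vcam1, while Col1a1 reached at most 78.3. The endothelium list summed to 3822 to 5345 in Stat3β TG and 3097 to 5361 in WT, mostly Pecam1, which myeloid cells also express, while Cdh5 reached at most 7.87. Both Y-linked transcripts and the main axis of variation divided the WT libraries. Y-linked normalized counts, over 4 genes, summed to between 8781 and 9465 in Stat3β TG and to 11012 in WT 2, but to 58.8 in WT 1 and 71.8 in WT 3. WT 1 lay beside the Stat3β TG libraries, and WT 2 and WT 3 apart from them, on the leading principal component (47.4% of the variance). Results that rest on one of these libraries are given with and without it.

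Of the 24 chemokine receptor genes examined, the 6 receptors had the highest means; only Cx3cr1 in WT 2, at 51.4 normalized counts, lay within the range of the rest. The other 18 stayed below 100 normalized counts in every library, with 93.4 for Xcr1 in WT 2 as their highest value. Ccr4 was listed at 0 in all 6 libraries, and 5 of the 18 passed 3 reads in no library. Levels of different genes were compared per kilobase of annotated exon. On that scale Cxcr4 averaged 8966 ± 1849 normalized counts per kilobase in Stat3β TG and 12774 ± 1395 in WT (SD, n = 3 each). It made up 76.6% to 80.1% of the summed level of the 6 receptors per kilobase in Stat3β TG and 83.6% to 92.9% in WT. These ranges did not overlap, but neither did the levels of Cxcr4, so the share is not a separate result. Groups without overlap and with Stat3β TG lower were found in 4.92% of all tested genes. The 92.9% was in WT 3, the lowest library for Cxcr2, Ccr1, Ccr2 and Ccrl2. Ccr1 came second, at 1189 ± 110 normalized counts per kilobase in Stat3β TG and 1038 ± 396 in WT. In Stat3β TG it was followed by Cx3cr1 at 423 ± 406, Ccr2 at 398 ± 369, Ccrl2 at 303 ± 179 and Cxcr2 at 222 ± 21.7 per kilobase. In WT the order was Ccr2 at 214 ± 186, Ccrl2 at 212 ± 140, Cxcr2 at 191 ± 73.7 and Cx3cr1 at 146 ± 181 per kilobase. The ranges of these last 4 overlapped one another in each group, so their order is not larger than the spread. Each library of Cxcr4 lay above every library of Ccr1. Within each group, each library of Ccr1 lay above every library of the other 4.

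**Figure D1:**
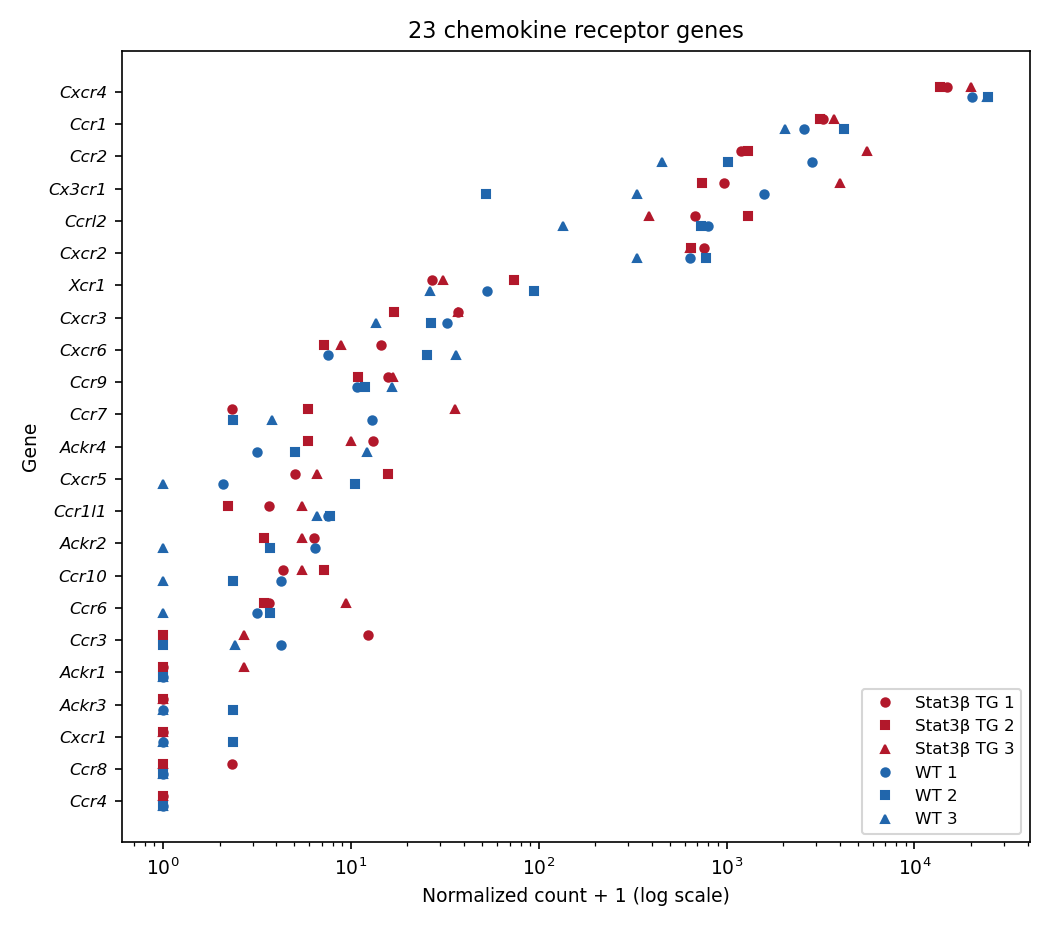
Normalized count + 1 on a log axis for 23 of the chemokine receptor genes, ordered by mean, with 1 point per library (Stat3β TG in red above, WT in blue below). The 6 receptors of the report fill the top rows, and every other gene plotted stays below 100 normalized counts.

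Cxcr4 was lower in Stat3β TG blasts than in WT blasts, and it was the only one of the 6 whose groups did not overlap. It had 14866, 13750 and 20017 normalized counts in Stat3β TG 1 to 3, against 20197, 24783 and 24306 in WT 1 to 3. The highest Stat3β TG library and the lowest WT library nearly met, at 20017 and 20197. The limma fold change was 0.695, with a 95% interval of 0.515 to 0.940, or -0.52 on the log2 scale (standard error 0.19). The unadjusted limma p of 0.0239 ranked 305 among 12642 genes and gave an adjusted p of 0.668, so the difference did not pass over all genes. Groups that do not overlap with Stat3β TG lower were found in 4.92% of all tested genes, and an unadjusted p under 0.05 with Stat3β TG lower in 2.54%. Markers of mature neutrophils, which carry less Cxcr4 than their precursors, differed between the groups too: the sum of all 15 was 403562 to 597081 normalized counts in Stat3β TG and 115567 to 390884 in WT, without overlap. The summed monocyte and macrophage markers did not overlap either, at 95267 to 172318 in Stat3β TG and 81909 to 94113 in WT. The part of these markers in the Cxcr4 values was not tested. In bulk samples, fewer cells that carry a transcript and less of it per cell cannot be told apart.

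**Figure D2:**
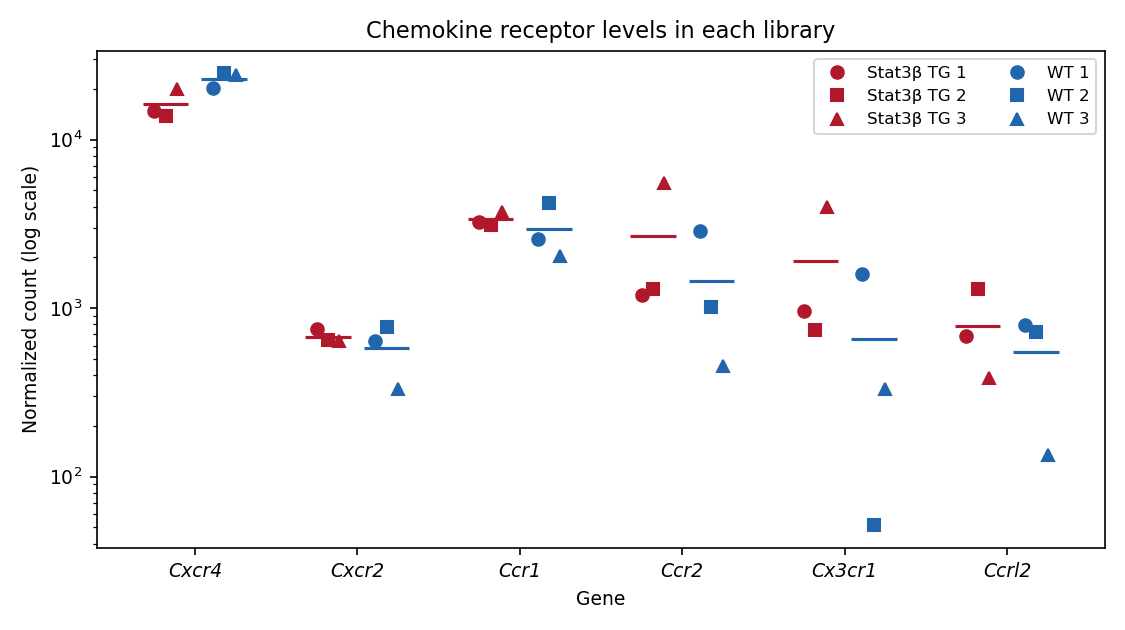
Normalized counts (log axis) of the 6 receptors in each library, Stat3β TG in red left of WT in blue, with a bar at each group mean. For Cxcr4 the 3 Stat3β TG libraries, at 13750 to 20017, lie below the 3 WT libraries, at 20197 to 24783; for the other 5 genes the groups overlap.

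Cxcr4 (Entrez 12767) is annotated in GRCm38.p6 on chromosome 1, bases 128588199 to 128592299, minus strand. The 250 bases before its annotated start are shown beside those of Ccr1, as the sequence context of the 2 most abundant receptors, and are RefSeq sequence of GRCm38.p6 written 5′ to 3′ on the gene's strand. Capitals mark a match to the motif of the factor NRF1, searched on both strands as a GCGC, any 2 bases and a second GCGC; the Ccr1 window held none of the motifs searched and is in lower case throughout.
Cxcr4, chr1:128592300-128592549, minus strand: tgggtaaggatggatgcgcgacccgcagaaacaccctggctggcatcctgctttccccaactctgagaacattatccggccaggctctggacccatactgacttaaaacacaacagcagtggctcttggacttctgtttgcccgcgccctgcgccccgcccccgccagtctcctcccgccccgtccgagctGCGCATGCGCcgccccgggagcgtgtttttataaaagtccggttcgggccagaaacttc
Ccr1, chr9:123968693-123968942, minus strand: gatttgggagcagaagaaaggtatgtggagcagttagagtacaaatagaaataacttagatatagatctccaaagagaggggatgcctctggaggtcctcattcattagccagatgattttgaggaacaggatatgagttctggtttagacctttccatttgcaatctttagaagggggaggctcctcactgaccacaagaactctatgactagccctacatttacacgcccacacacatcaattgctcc

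The Cxcr4 window held 19 CG pairs and was 61.2% G or C, against 1 CG pair and 43.6% in the Ccr1 window. Over the first listed start of 27025 genes the medians were 6 CG pairs and 52% G or C. The NRF1 motif was present in 5.09% of those windows. The STAT motif TTCNNNGAA, searched on both strands, was in 7.18% of all windows and in none of the windows of the 6 receptors. The C/EBP motif TTGCNNAA (9.55% of all windows) and the PU.1 core GAGGAAG (10.4%) were also in none of theirs. The NF-κB motif GGGANNTCC (3.53%) had 1 match, 26 to 18 bases before the start of Cxcr2. The windows of Cxcr2, Ccr2, Cx3cr1 and Ccrl2, which has 3 listed starts, overlap an annotated exon of their own gene. These are matches of letters in a short window and describe no binding.

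Cxcl12, which encodes the ligand of CXCR4, was low, at 124.5, 17.2 and 72.5 normalized counts in Stat3β TG 1 to 3 and 56.6, 48.7 and 2.81 in WT 1 to 3, and the groups overlapped. Of 14 cofactors and regulators of CXCR4, 9 were higher and 5 lower in Stat3β TG. Their median log2 fold change was 0.15, where all tested genes had a median of 0.01 and 51.4% were higher. Limma and DESeq2 called 0 of the 14, and 0 had an unadjusted limma p under 0.05, where over all genes the shares were 0%, 0.134% and 6.10%. Mmp9, a protease that can cleave CXCL12, was at 11327 ± 7410 normalized counts in Stat3β TG and 5208 ± 1611 in WT (SD, n = 3 each). Hif1a, the oxygen-sensing factor that can induce Cxcr4, was at 2217 ± 460 in Stat3β TG and 3055 ± 887 in WT. Cd74, which pairs with CXCR4 as a receptor for MIF, was at 60.2, 46.8 and 459.6 in Stat3β TG 1 to 3 and 80.5, 16.2 and 14.1 in WT 1 to 3. Stat3β TG 3 alone set its group mean. Runx1, a transcription factor of blood stem cells, was at 3180 ± 1457 in Stat3β TG and 2037 ± 687 in WT.

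Cxcr2 (chromosome 1, 74153994 to 74161246, plus strand, Entrez 12765) was nearly level across 5 of the 6 libraries. It had 754, 645 and 635 normalized counts in Stat3β TG 1 to 3, against 638, 772 and 333 in WT 1 to 3. WT 3 was the one low library, and the Stat3β TG values lay within the WT range. The log2 fold change came to 0.30 (standard error 0.32, limma adjusted p = 0.746), and to -0.053 without WT 3. The 15 markers of mature neutrophils, whose sums did not overlap, all had a higher mean in Stat3β TG. WT 2 had the lowest sum and the highest Cxcr2 value; the part of these markers in the Cxcr2 values was not tested. Of the CXC chemokine genes Cxcl1, Cxcl2, Cxcl3, Cxcl5 and Ppbp, whose products bind CXCR2, only Cxcl2 passed the filter on low values. It had 1905, 4281 and 497 normalized counts in Stat3β TG 1 to 3 and 808, 2196 and 516 in WT 1 to 3, with overlapping groups (log2 fold change 0.72, standard error 0.80, limma adjusted p = 0.767). Cxcl1, Cxcl3 and Ppbp stayed at or below 18.5, 9.85 and 17.6 normalized counts, and Cxcl5 was listed at 0 throughout. Cxcr1, which encodes the closely related receptor, was listed at 0 in 5 libraries and at 1.35, which is 1 read, in WT 2.

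Ccr1 (chromosome 9, 123962126 to 123968692, minus strand, Entrez 12768) was the steadiest receptor within Stat3β TG. It had 3247, 3135 and 3720 normalized counts in Stat3β TG 1 to 3, against 2573, 4198 and 2049 in WT 1 to 3. The WT libraries spanned both sides of the Stat3β TG range. The coefficient of variation was 9.22% in Stat3β TG and 38.1% in WT, and for Cxcr2 it was 9.76% in Stat3β TG and 38.6% in WT; whether these spreads differ was not tested. The log2 fold change came to 0.26 (standard error 0.26, limma adjusted p = 0.738). Without WT 2, the highest library, it was 0.55, and without WT 3 it was 0.03. Transcripts of the ligands of CCR1 ranged from abundant to nearly absent in the sorted blasts. Ccl5 had 144, 83.7 and 108 normalized counts in Stat3β TG 1 to 3 and 136, 158 and 1.41 in WT 1 to 3, and Ccl7 stayed at or below 4.06. Ccl3 had 10400, 13472 and 9982 normalized counts in Stat3β TG 1 to 3 and 11898, 15961 and 3438 in WT 1 to 3, with WT 3 alone below the rest. Ccl9 averaged 5440 ± 1736 in Stat3β TG and 4420 ± 2196 in WT, and Ccl6 averaged 1488 ± 206 in Stat3β TG and 1010 ± 468 in WT (SD, n = 3 each). Ccl6 had the smallest p of the ligands (log2 fold change 0.65, standard error 0.31, limma adjusted p = 0.668).

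Ccr2 and Cx3cr1, the receptors of monocytes, varied widely between libraries of one group. Ccr2 (chromosome 9, 124101918 to 124109140, plus strand, Entrez 12772) had 1191, 1305 and 5567 normalized counts in Stat3β TG 1 to 3, against 2861, 1018 and 452 in WT 1 to 3. Cx3cr1 (chromosome 9, 120048683 to 120068296, minus strand, Entrez 13051) had 963, 738 and 4013 in Stat3β TG 1 to 3, against 1586, 51.4 and 331 in WT 1 to 3. In both genes Stat3β TG 3 was the highest library, WT 1 came second, and the groups overlapped. Within groups the SD of the log2 level was 1.29 for Ccr2 and 1.97 for Cx3cr1, higher than in 98.1% and 99.6% of the 10972 tested genes with a mean of at least 50, whose median was 0.27. For Cxcr4 this SD was 0.23.

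The group difference of Ccr2 and of Cx3cr1 depended on which library was left out. For Ccr2 the log2 fold change came to 0.91 (standard error 0.77, limma adjusted p = 0.702), 0.19 without Stat3β TG 3, 0.27 without WT 3 and 1.60 without WT 1. For Cx3cr1 it came to 2.23 (standard error 1.17, limma adjusted p = 0.668), 1.48 without Stat3β TG 3, 0.97 without WT 2 and 3.43 without WT 1. The ratio of the group means of Cx3cr1 was 2.90, and edgeR gave a log2 fold change of 1.53 (adjusted p = 0.688). Among libraries with Y-linked reads, Stat3β TG against WT 2 alone, the log2 fold change of Cx3cr1 was 4.76 (limma adjusted p = 0.0529). Against WT 1 alone it was -0.16, and that of Ccr2 was -0.48. Each of these last fits has an arm of 1 library, which is assumed to vary like the others.

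**Figure D3:**
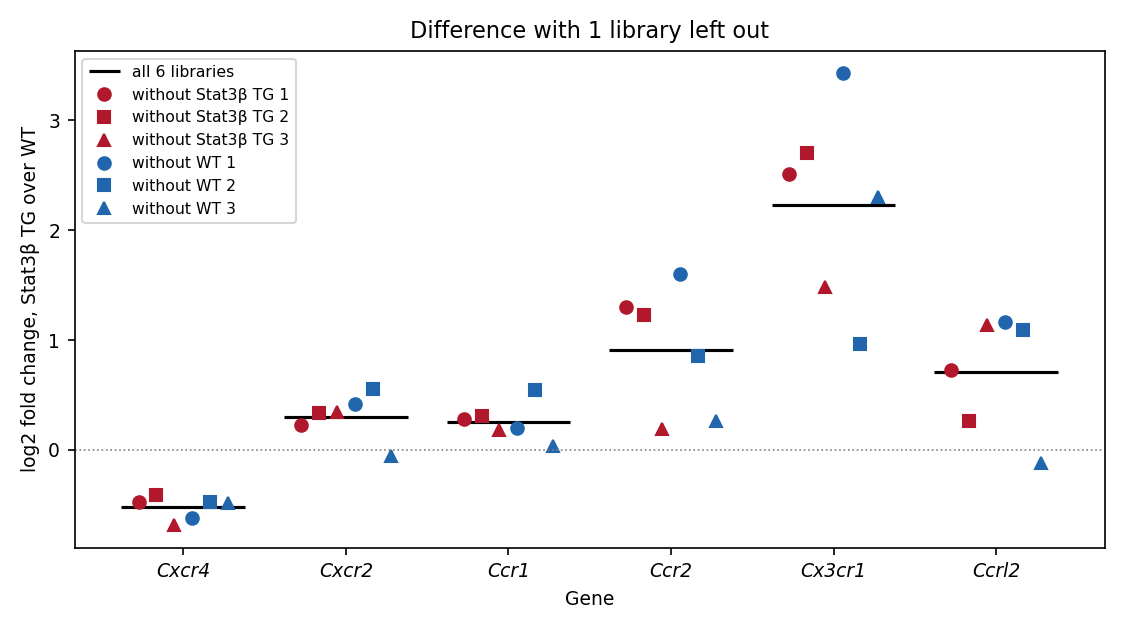
Stat3β TG over WT log2 fold changes (limma, vertical axis) for each receptor with all 6 libraries (black bar) and with 1 library left out (points, coloured by the group of the library left out). Cxcr4 stays between -0.69 and -0.41, while Cx3cr1 runs from 0.97 to 3.43 and Cxcr2 and Ccrl2 cross 0 without WT 3.

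Markers of monocytes and macrophages moved with Ccr2 and Cx3cr1 in part. Of 17 markers, 12 had a higher mean in Stat3β TG. Their summed level was 95267 to 172318 in Stat3β TG, highest in Stat3β TG 3, and 81909 to 94113 in WT, highest in WT 1. These sums did not overlap, but Stat3β TG 2 and WT 1 nearly met. Csf1r, the receptor for the monocyte growth factor M-CSF, had 6827, 5270 and 10699 normalized counts in Stat3β TG 1 to 3 and 7798, 3032 and 3854 in WT 1 to 3. Irf8, a transcription factor of monocyte precursors, had 5816, 7580 and 14988 in Stat3β TG 1 to 3 and 9189, 5522 and 3540 in WT 1 to 3. Both thus shared Stat3β TG 3 and WT 1 as their highest libraries. The 5 markers of mature macrophages C1qa, C1qb, Mrc1, Ms4a7 and Fcgr1 reached at most 52.9 in any library. Of 7 NK cell markers, another class of cells with CX3CR1, all had a higher mean in Stat3β TG, but their sum was only 279 to 566 in Stat3β TG and 14.1 to 459 in WT. The part that the monocyte and NK cell markers have in the values of Ccr2 and Cx3cr1 was not tested.

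**Figure D4:**
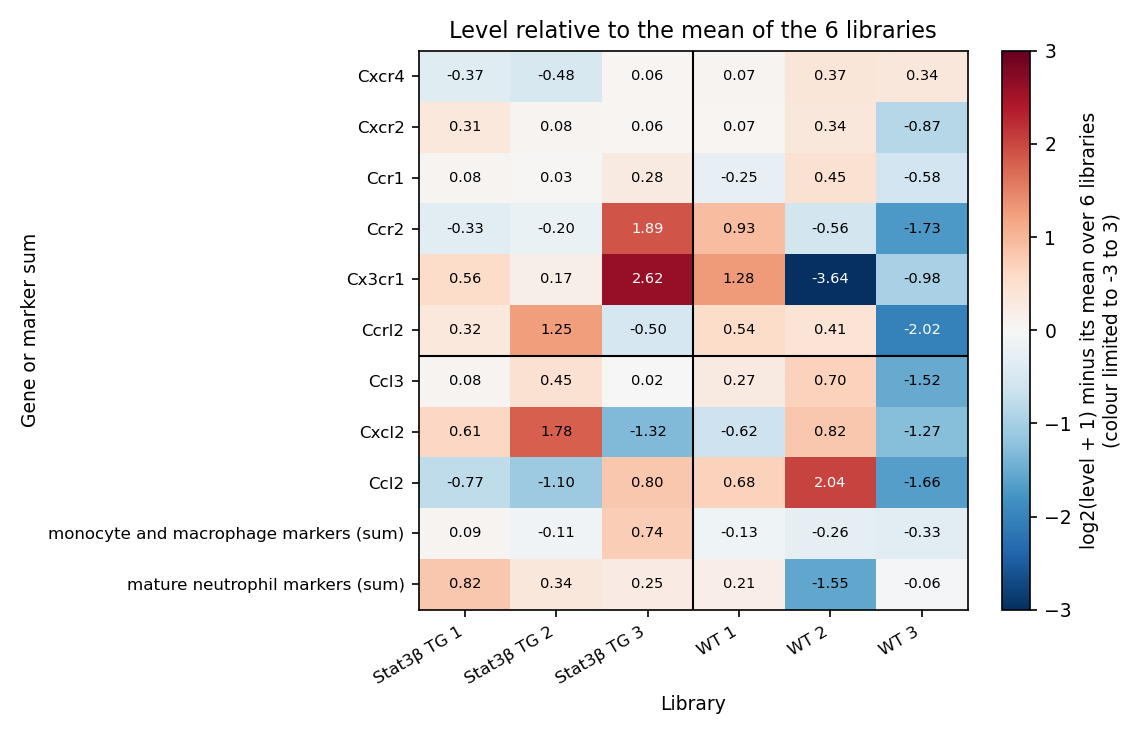
log2(level + 1) of each receptor and of 3 ligands, and of 2 summed marker lists, minus its mean over the 6 libraries (columns, Stat3β TG left of WT). Ccr2 and Cx3cr1 are high in Stat3β TG 3 and WT 1, and Cxcr2, Ccr1, Ccrl2 and Ccl3 share their lowest value in WT 3.

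Over the 15 pairs of receptors, Ccr2 and Cx3cr1 had the highest Spearman correlation across the 6 libraries. Its rho was 0.89 (exact permutation p = 0.0333, adjusted p = 0.5 over 15 pairs) and Pearson's r on the log2 scale was 0.72 (exact permutation p = 0.114, adjusted p = 0.569). Without Stat3β TG 3 and WT 3, the libraries farthest from the median of Ccr2, r was 0.67 over 4 libraries. The relation did not pass the adjustment. Cxcr2 had an r of 0.83 with Ccr1 (exact permutation p = 0.0222, adjusted p = 0.333). Its rho with Ccr1 was 0.66 (exact permutation p = 0.175, adjusted p = 1). Without WT 2 and WT 3, the libraries farthest from the median of Cxcr2, r was 0.13 over 4 libraries. Leaving out the extremes of a gene narrows its range, so the lower r does not show where the relation lies. The highest r of the 15 pairs was 0.84, of Cxcr2 with Ccrl2 (exact permutation p = 0.0889, adjusted p = 0.569). Without the same libraries it was -0.0036. All libraries share the same scaling.

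Ccr2 lies in a run of receptor genes on chromosome 9 that includes Ccr1, Ccr1l1 and Ccr3. Ccr1l1 and Ccr3, between Ccr1 and Ccr2, stayed at or below 6.77 and 11.4. Of the 5679 windows of 50 bases in the longest Ccr2 transcript, 129 also occurred in other genes, so a small share of reads could be split between them. Cxcr4, Ccr1 and Ccrl2 shared 0 such windows with other genes, Cx3cr1 shared 1.06% and Cxcr2 6.77%. Ccr8, 23836 bases beyond the start of Cx3cr1, was listed at 0 in 5 libraries and at 1.34 normalized counts, which is 2 reads, in Stat3β TG 1. The ligands of CCR2 and CX3CR1 were low or variable. Ccl2 had 94.4, 75.1 and 283 normalized counts in Stat3β TG 1 to 3 and 260, 666 and 50.7 in WT 1 to 3, and Cx3cl1 stayed at or below 3.69.

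Ccrl2 (chromosome 9, 111054834 to 111057518, minus strand, Entrez 54199) followed no group. It had 680, 1298 and 387 normalized counts in Stat3β TG 1 to 3, against 797, 726 and 134 in WT 1 to 3. The lowest library was WT 3 and the highest Stat3β TG 2, and the groups overlapped. The log2 fold change came to 0.71 (standard error 0.72, limma adjusted p = 0.744), 0.27 without Stat3β TG 2 and -0.12 without WT 3. Rarres2, which encodes chemerin, stayed at or below 4.02 normalized counts, and the signalling chemerin receptor gene Cmklr1 had 24.1, 3.69 and 19.1 in Stat3β TG 1 to 3 and 6.53, 58.2 and 36.6 in WT 1 to 3.

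Across the 6 receptors, 5 were higher in Stat3β TG and 1, Cxcr4, was lower, and their median log2 fold change was 0.51. Over all tested genes 51.4% were higher and the median was 0.01. Limma called 0 of the 6, where 0% of all 12642 tested genes were called. Its unadjusted p was under 0.05 for 1 of the 6, Cxcr4, where 6.10% of all genes were. The groups did not overlap in 1 of the 6, where 10.8% of all genes did so in either direction. EdgeR on the recovered reads called 0 of the 6, and 0% of all genes, and DESeq2 called 0 of the 6, where it called 0.134% of all genes. For Cxcr4 the edgeR log2 fold change was -0.52 (adjusted p = 0.688) and that of DESeq2 was -0.52 (adjusted p = 0.480). The log2 fold change lay outside -1 to 1 for 1 of the 6, Cx3cr1, where it did for 6.70% of all genes. None of the 6 was called by limma when libraries were left out, although it then called 2.74% of all genes without WT 1 and 0.0396% without WT 2. Against WT 2 alone it called 5.85% of all genes and against WT 1 alone 0.0712%. The 95% limma intervals of the fold were 0.745 to 2.05 for Cxcr2 and 0.794 to 1.801 for Ccr1. They were 0.543 to 6.46 for Ccr2, 0.715 to 30.8 for Cx3cr1 and 0.513 to 5.23 for Ccrl2, so sizable differences either way remain within the error.

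**Figure D5:**
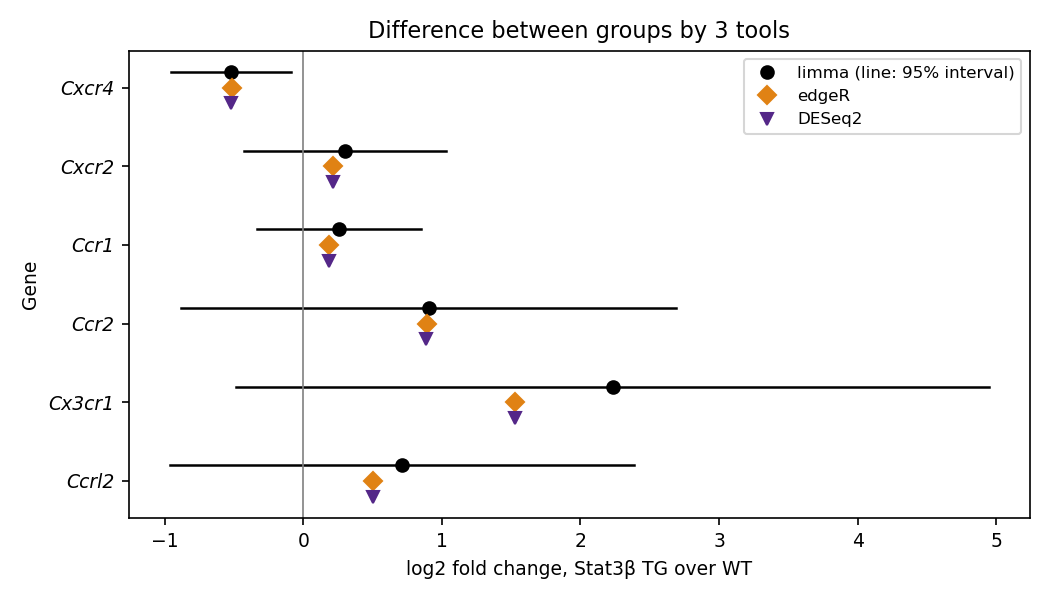
Stat3β TG over WT log2 fold changes for each receptor by limma (circle, with its 95% interval), edgeR (diamond) and DESeq2 (triangle). The limma interval of Cxcr4, -0.96 to -0.09, is the only one that leaves out 0 before adjustment, and the interval of Cx3cr1 is the widest.

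For each receptor the 3 genes with the most similar profile were taken by Pearson's r of the log2 values over the 6 libraries, as a description of 6 points. Those most like Cxcr4 were Zc3hav1l, Gm10509 and Dek, with r of 0.98 each. Dek, a chromatin protein gene of myeloid leukaemia, had 8626, 8481 and 9905 normalized counts in Stat3β TG 1 to 3 and 9573, 10824 and 11091 in WT 1 to 3. Cx3cr1 was most like Nkrf, Brd7 and Fignl1 (r of 0.991 to 0.998), and 565 genes had an r above 0.9 with it. Ccr2 was most like Tnfsf12, Ifngr2 and Med19 (r of 0.99 each). Ifngr2, a chain of the interferon gamma receptor, had 2077, 2140 and 3086 in Stat3β TG 1 to 3 and 2615, 2136 and 1665 in WT 1 to 3, with the same highest and lowest libraries as Ccr2. Ccr1 was most like Plcxd2, Kat8 and Fyb (r of 0.986 to 0.996), Cxcr2 most like Ipmk, Ncoa3 and Syap1 (r of 0.98 to 0.99), and Ccrl2 most like Epha7, Ptpn22 and Mir142b (r of 0.99 each).

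The signalling genes downstream of these receptors were abundant. Of 27, 26 had a mean of at least 1000 normalized counts, and Gnai1 was listed at 0 in every library. The G protein subunit gene Gnai2 averaged 35009 ± 1028 normalized counts in Stat3β TG and 32775 ± 1339 in WT, and the GTPase gene Rac2 averaged 46438 ± 5244 in Stat3β TG and 45024 ± 3784 in WT (SD, n = 3 each). Of the 26 tested, 20 were higher and 6 lower in Stat3β TG (median log2 fold change 0.14), against 51.4% higher over all tested genes. Limma and DESeq2 called 0 of them, where they called 0% and 0.134% of all genes. An unadjusted limma p under 0.05 was found for 3, all higher, where 3.56% of all genes were. Among them was Pik3r5, a regulatory subunit of phosphoinositide 3-kinase gamma, at 2608, 2050 and 2210 in Stat3β TG 1 to 3 and 1807, 1305 and 777 in WT 1 to 3. The focal adhesion kinase relative Ptk2b was at 6267 ± 387 in Stat3β TG and 4218 ± 1419 in WT. Plcb3, a phospholipase C, was at 1755 ± 344 in Stat3β TG and 1144 ± 476 in WT. In 6 of the 26 the groups did not overlap, all with Stat3β TG higher, where 5.87% of all genes did so. The summed neutrophil markers and the summed monocyte and macrophage markers divided the groups in the same way. The part of these markers here was not tested. Without WT 1 limma called 1 of the 26, Ptk2b (adjusted p = 0.0476), where it called 2.74% of all genes.

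Genes that switch receptors off were divided evenly. Of 22 tested genes of desensitisation and turnover, 11 were higher and 11 lower in Stat3β TG (median log2 fold change 0.0038). Limma and DESeq2 called 0 of the 22, where they called 0% and 0.134% of all genes. Arrb2, the arrestin gene whose product uncouples and internalises chemokine receptors, was the 1 gene of the 22 with an unadjusted limma p under 0.05, where 6.10% of all genes had one. It had 11694, 10391 and 9187 normalized counts in Stat3β TG 1 to 3, against 7553, 5989 and 8253 in WT 1 to 3, without overlap (log2 fold change 0.53, standard error 0.17, adjusted p = 0.668). The kinase gene Grk2, which marks active receptors for arrestins, averaged 29936 ± 2430 in Stat3β TG and 30747 ± 3281 in WT (SD, n = 3 each). Among regulators of G protein signalling, Rgs16 was at 8.20 ± 5.28 in Stat3β TG and 21.5 ± 5.80 in WT, Rgs3 at 121 ± 29.5 in Stat3β TG and 62.6 ± 36.1 in WT, and Rgs19 at 6654 ± 608 in Stat3β TG and 5259 ± 900 in WT. The groups of Rgs16 did not overlap, and those of Rgs3 and Rgs19 did. In all, 2 of the 22 were higher and 2 lower in Stat3β TG without overlap, where 5.87% and 4.92% of all genes were.

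The remaining receptors and ligands gave no call. Of the 18 other receptors, 5 were tested, 3 were higher and 2 lower, and limma and DESeq2 called 0, with 0 at an unadjusted limma p under 0.05. Over all genes those shares were 0%, 0.134% and 6.10%, so counts of 0 in lists this short say little. Cxcr6, a receptor for the membrane-bound chemokine CXCL16, was at 9.14 ± 3.78 normalized counts in Stat3β TG and 22.0 ± 14.5 in WT (SD, n = 3 each). Xcr1, which binds XCL1, was at 42.8 ± 25.9 in Stat3β TG and 57.0 ± 34.3 in WT, and Cxcr3 was at 29.4 ± 11.6 in Stat3β TG and 23.3 ± 9.68 in WT. Of 36 ligands, 13 were tested, 9 were higher and 4 lower, and again limma and DESeq2 called 0, with 0 at an unadjusted limma p under 0.05, against the same shares of all genes. Mif, the ligand shared by CD74, CXCR2 and CXCR4, was at 404 ± 134 in Stat3β TG and 601 ± 177 in WT, and Xcl1 was at 13.3 ± 6.31 in Stat3β TG and 10.7 ± 16.2 in WT.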

How the data were processed

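RNA was sequenced from sorted MLL-AF9+ blasts of 3 Stat3β TG and 3 WT samples, grouped by their titles. The submitters' processing notes name FastQC, STAR and DESeq2 with the mouse build GRCm38 (mm10). The sources used here do not give versions, the gene counter, strand handling or the annotation. The authors deposited normalized counts per gene, a signal that is never negative, under Entrez gene IDs. In each library these values were whole multiples of 1 step, the worth of 1 read: dividing by it left 100% of 146724 values within 0.001 of a whole number. Symbols for 24376 of 24454 IDs, coordinates and promoter sequences came from RefSeq tables of GRCm38.p6. Exon lengths came from GENCODE M21.

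Genes with at least 10 normalized counts in at least 3 libraries were tested (12642) as log2(normalized count + 1) with limma 3.58.1 in R 4.3.3. The fit used a mean-variance trend and robust moderation, with group as the only term and a two-sided Benjamini-Hochberg threshold of 0.05 over all tested genes. Fold changes are on that log2 scale. On the recovered reads, edgeR 4.0.16 and DESeq2 1.42.0 were run as alternatives. The pseudocount, filter, scaling, replicate number and libraries were also varied. The scripts were tested on simulated data.

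The receptors and lists were chosen with earlier results of these data known. By rule, the text names the 6 receptors, Stat3, the (at most 4) smallest limma p-values in each list, abundant members by level, chromosome 9 receptor genes, and the 3 genes most correlated with each receptor among those with a mean of at least 50. Xist, and other list members and cell type markers given with values, were named after their values were seen. List sizes and counts carry no list test. Single values of some list members are not reported here.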

Additional observations from a re-analysis of the deposited data

How the results depend on the processing

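Each receptor's log2 fold change was recomputed under 19 alternatives, and none of the 114 values passed the threshold. Direction was kept in 106, and for Cxcr4 in 19 of 19, between -0.69 and -0.41 without 1 library (adjusted p at least 0.104 over all alternatives). Leaving out 1 library gave -0.053 to 0.55 for Cxcr2, 0.03 to 0.55 for Ccr1, 0.19 to 1.60 for Ccr2, 0.97 to 3.43 for Cx3cr1 and -0.12 to 1.16 for Ccrl2. Against WT 2 alone, the comparison within libraries with Y-linked reads, the sign turned for Cxcr2 (-0.19), Ccr1 (-0.32) and Ccrl2 (-0.054). Against WT 1 alone it turned for Ccr2 (-0.48), Cx3cr1 (-0.16) and Ccrl2 (-0.19). The cause of these turns was not tested. Cxcr4 kept its sign, at -0.63 against WT 2 alone and -0.34 against WT 1 alone, the weakest of its 19 values. Its groups did not overlap, so leaving out libraries could change the size of this difference but not its sign. The 11 changes of pseudocount, filter, scaling, tool, moderation or block kept every direction, and Cx3cr1 ranged from 1.53 to 2.24 among them. Limma called 0 genes with all libraries, and 771 were at an unadjusted p under 0.05; DESeq2 called 17. Without 1 library limma called 0 to 346, the highest without WT 1, and 5 without WT 2; against WT 2 alone it called 740 and against WT 1 alone 9. Same-numbered libraries deviated together with correlations of 0.14, 0.10 and -0.11, so the numbers were not taken as pairs. With the replicate block limma called 0 genes, and the log2 fold change of Cxcr4 was -0.52 (adjusted p = 0.658). Precision rests on 3 libraries a group.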

Other observations

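Receptors for other chemoattractants, which neutrophils and monocytes use beside chemokine receptors, were higher in Stat3β TG in 14 of 18 tested members, with a median log2 fold change of 0.57, against 51.4% higher and a median of 0.01 over all tested genes. Limma called 0 of them, and 3 had an unadjusted p under 0.05, all higher in Stat3β TG, where 0% and 3.56% of all genes did so. DESeq2 called 2, the formyl peptide receptor genes Fpr1 and Fpr2, where it called 0.134% of all genes. C5ar1, the receptor for the complement fragment C5a, had 2158, 1832 and 935 normalized counts in Stat3β TG 1 to 3, against 950, 417 and 471 in WT 1 to 3. The groups overlapped, with 935 in Stat3β TG 3 below 950 in WT 1 (log2 fold change 1.43, standard error 0.40, limma adjusted p = 0.668, DESeq2 adjusted p = 0.110). Gpr84, a receptor for medium-chain fatty acids, had 1258, 973 and 558 in Stat3β TG 1 to 3, against 942, 218 and 241 in WT 1 to 3, and the groups overlapped. Without WT 1 limma called 4 of the 18, all higher in Stat3β TG, where it called 2.74% of all genes. Markers of mature neutrophils also had a higher mean in Stat3β TG in 15 of 15, and those of monocytes and macrophages in 12 of 17. The part of these markers in the values above was not tested.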
